A study of Mus musculus with 6 samples.

Results

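Amino acid transporters were measured in sorted tumour cells of a mouse model of pancreatic cancer. They were taken as the protein-coding genes of the solute carrier (SLC) families SLC1, SLC6, SLC7, SLC36, SLC38 and SLC43 and the heavy chain genes Slc3a1 and Slc3a2, by gene symbol. The table held 54 such genes among 25978. One of them, Slc7a6os, fits the symbol pattern but encodes no transporter. A further 10 annotated genes of these families had no row and were not analysed here.

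RNA came from YFP-positive cells of primary KPCY pancreatic tumours, sorted by the epithelial surface protein EpCAM into EpCAM- cells (3 libraries) and EpCAM+ cells (3 libraries). All mice of both groups were C57BL/6, between 5 and 7 weeks old, and carried the same alleles: Pdx1-Cre, KrasLSL-G12D, Trp53fl/fl and Rosa26LSL-YFP. No untreated or normal tissue was compared. Pdx1-Cre acts throughout the pancreatic lineage, so normal pancreatic cells can carry the YFP mark and enter the sort.

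Amino acid transporters set which amino acids a cell can take up, exchange or release. Some use the sodium gradient to concentrate an amino acid, and others only exchange an amino acid outside the cell for a different amino acid inside. The exchangers of the SLC7 light chain group reach the membrane only when bound to a heavy chain, Slc3a2 (CD98) or Slc3a1. Pancreatic cancer cells are known for a high demand for glutamine and cystine, and acinar cells of the normal pancreas take up amino acids at a high rate to make digestive enzymes.

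The deposited values are log2 levels normalised between libraries, so the sequencing depth is unknown. The labels fitted the sorted gene: Epcam stood at 8.42, 8.22 and 7.22 in EpCAM- replicates 1, 2 and 3, against 15.06, 14.90 and 14.89 in EpCAM+ replicates 1, 2 and 3. Markers of other pancreatic cells differed between the groups. The 14 acinar markers summed, after back-transformation, to between 642.5 and 829.9 in EpCAM- libraries and between 65090 and 128600 in EpCAM+ libraries, and 13 of them fell. The 12 islet markers summed to between 111.6 and 178.2 in EpCAM- libraries and between 2512 and 12500 in EpCAM+ libraries, and 10 of them fell. The 12 macrophage markers summed to between 1185 and 1336 in EpCAM- libraries and between 4516 and 10840 in EpCAM+ libraries, and 9 of them fell. The 12 fibroblast markers summed to 132600, 176400 and 38920 in EpCAM- replicates 1, 2 and 3 and to 14760, 1444 and 1770 in EpCAM+ replicates 1, 2 and 3, and 10 of them rose. Of 10 markers of the mesenchymal state, 9 rose, and of 12 epithelial markers, with the sorted gene Epcam among them, 12 fell. Of 9 lymphocyte markers with a row, 8 were below the level needed for testing. In these sorted bulk samples, fewer cells of a type and less RNA per cell cannot be told apart.

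The 4 promoters printed here are shown because they carry letters recognised by regulators of amino acid shortage or of epithelial genes. The amino acid response element, searched as TGATGNAA, is bound by ATF4 when amino acids are short, and the E-box CAGGTG is bound by Snail and Zeb repressors of epithelial genes. Both strands of the 300 bases from 250 before to 50 after each RefSeq gene start (build GRCm38.p6) were searched, and no promoter shown holds both patterns. Capitals mark the matches. The response element stands in the promoters of genes that were higher in EpCAM- cells, Slc7a11 (chr3:50443564-50443863, minus strand) and Slc1a4 (chr11:20332664-20332963, minus strand).
Slc7a11: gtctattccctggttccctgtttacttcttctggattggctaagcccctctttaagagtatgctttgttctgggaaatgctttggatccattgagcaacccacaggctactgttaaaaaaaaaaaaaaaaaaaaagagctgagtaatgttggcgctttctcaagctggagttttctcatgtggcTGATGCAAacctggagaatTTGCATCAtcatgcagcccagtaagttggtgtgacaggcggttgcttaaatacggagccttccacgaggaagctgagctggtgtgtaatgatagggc
Slc1a4: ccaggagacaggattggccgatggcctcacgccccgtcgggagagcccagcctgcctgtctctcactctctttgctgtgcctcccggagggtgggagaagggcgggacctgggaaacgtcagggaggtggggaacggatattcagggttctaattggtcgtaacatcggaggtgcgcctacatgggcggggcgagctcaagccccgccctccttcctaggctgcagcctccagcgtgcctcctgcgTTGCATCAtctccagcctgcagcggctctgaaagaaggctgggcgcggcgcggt
The others hold an E-box, in Slc38a4 (chr15:97031164-97031463, minus strand), which was lower in EpCAM- cells, and in Slc36a1 (chr11:55204090-55204389, plus strand), which was higher.
Slc38a4: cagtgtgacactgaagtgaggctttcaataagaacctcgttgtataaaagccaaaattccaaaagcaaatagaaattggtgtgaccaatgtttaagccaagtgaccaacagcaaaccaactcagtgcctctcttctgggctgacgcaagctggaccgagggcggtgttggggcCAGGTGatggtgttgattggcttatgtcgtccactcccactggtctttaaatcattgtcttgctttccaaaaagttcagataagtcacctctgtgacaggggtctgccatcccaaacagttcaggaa
Slc36a1: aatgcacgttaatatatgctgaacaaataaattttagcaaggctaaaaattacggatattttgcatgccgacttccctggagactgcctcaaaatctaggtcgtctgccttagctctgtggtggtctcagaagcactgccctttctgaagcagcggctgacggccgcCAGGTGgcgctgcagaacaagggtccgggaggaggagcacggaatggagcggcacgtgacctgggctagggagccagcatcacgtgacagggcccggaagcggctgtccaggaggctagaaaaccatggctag
In Slc7a11 the response element occurs 2 times, in opposite orientation, 66 and 47 bases before the start, and in Slc1a4 1 time, 4 bases before it. Promoters of 26 of the 38 tested transporter genes were in the RefSeq table. The response element was found in 2 of 6 genes that rose (Slc7a11, Slc1a4), in 0 of 6 that fell and in 1 of 14 that did not pass (Slc7a7), and in 3.97% of all 32851 promoters. The E-box was found in 1 of 6, 1 of 6 and 5 of 14 genes of these groups, and in 20.2% of all promoters. The rises of Slc1a4 and Slc36a1 were small and did not pass under 5 and 7 of 15 other processing settings or library sets. A gene with several promoters in the table counted as a match if any of them held the pattern, so its chance of a match is above the share per promoter. The Slc38a4 promoter shown is 1 of 3 in the table and lies inside the annotated gene, whose outermost start on the minus strand is at 97055956 on chromosome 15. A match describes the letters and does not show that a factor binds there.

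EpCAM- cells had lower levels than EpCAM+ cells of the glutamine exchanger Slc1a5, the neutral amino acid carrier Slc38a4 and the glutamate carrier Slc1a3, while the abundant carriers Slc38a1, Slc38a2 and Slc6a6 did not pass. The widest falls, of Slc38a3, Slc6a20a, Slc1a1 and Slc6a14, belong to genes near the low end of the table in EpCAM- cells that reached the test only through their EpCAM+ level. EpCAM- cells had higher levels of exchangers and carriers for cystine (Slc7a11), large neutral amino acids (Slc7a5), arginine (Slc7a2) and proline (Slc36a4). Of the 54 genes, 38 had a mean back-transformed level of at least 10 and were tested. In EpCAM- cells 10 rose, 9 fell and 19 did not pass limma's test, with the threshold at 0.05 after Benjamini-Hochberg adjustment. The test called 19 of the 38 members, against 43.4% of all 15783 genes tested, so the share was near the background. The rise was called for 26.3% of tested members, against 20.3% of all genes, and the fall for 23.7%, against 23.1%. A call with a log2 difference of at least 1 in size was reached by 14 members, which is 36.8% of those tested against 23.9% of all genes. The median log2 difference was 0.09 over the tested members, against 0.00 over all tested genes, and the median size of the difference was 0.78, against 0.46. No value of one group reached into the other for 23 tested members (60.5%), against 56.3% of all tested genes. For 6 tested members (Slc38a3, Slc6a20a, Slc1a1, Slc6a14 and Slc7a14 in EpCAM- cells, Slc6a2 in EpCAM+ cells) the mean was under 10 in one of the groups, so the filter kept them only through the group where they were high and these counts lend no support of their own. The number that rose was 6 without EpCAM+ replicate 3, and also 6 without EpCAM+ replicate 1 and EpCAM- replicate 3 together.

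**Figure D1:**
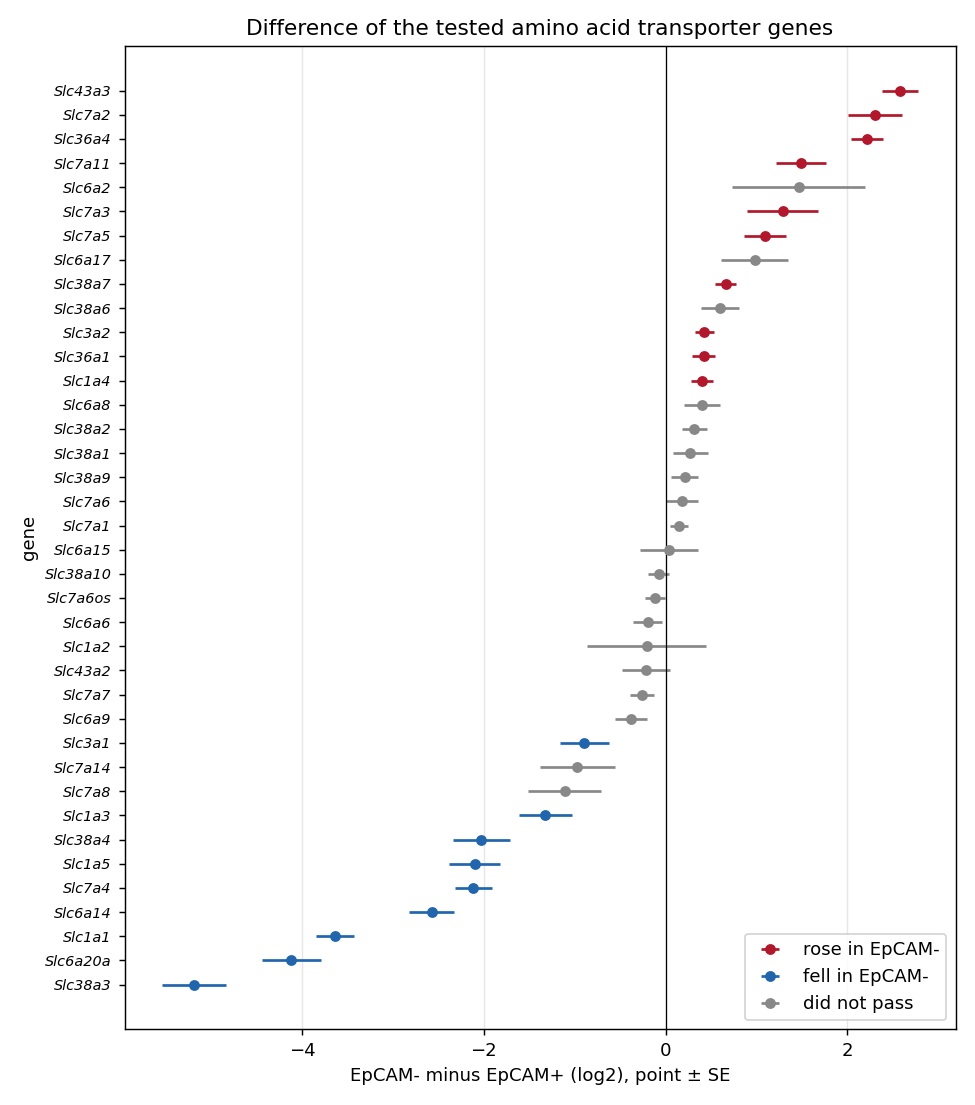
Log2 difference (EpCAM- minus EpCAM+, point ± SE) of the 38 tested genes, ordered by size, with genes that rose in red, genes that fell in blue and genes that did not pass in grey. The differences run from 2.58 for Slc43a3 at the top to -5.19 for Slc38a3 at the bottom. The widest falls, of Slc38a3, Slc6a20a, Slc1a1 and Slc6a14, belong to genes that the filter kept only through their EpCAM+ level.

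As a whole, the 54 genes summed to 0.212%, 0.213% and 0.199% of all back-transformed levels in EpCAM- replicates 1, 2 and 3, against 0.179%, 0.168% and 0.172% in EpCAM+ replicates 1, 2 and 3. The groups did not overlap in that sum. The SLC7 family took 0.0535%, 0.0467% and 0.0483% in EpCAM- libraries, against 0.0343%, 0.0333% and 0.035% in EpCAM+ libraries, and the SLC36 family between 0.00478% and 0.00635%, against between 0.00261% and 0.00274%. The SLC6 family overlapped, at 0.0466%, 0.0461% and 0.0413% in EpCAM- libraries, against 0.0443%, 0.046% and 0.0446% in EpCAM+ libraries. Slc38a2, a sodium-coupled carrier of small neutral amino acids and glutamine, made up between 24% and 28% of the members' sum in EpCAM- libraries and between 22.9% and 27.6% in EpCAM+ libraries.

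Of the carriers that import glutamate and aspartate with sodium, none rose. Slc1a1, which carries glutamate, aspartate and cysteine into epithelial cells and neurons (chromosome 19, 28835049 to 28913960), had log2 levels of 3.35, 2.93 and 3.02 in EpCAM- replicates 1, 2 and 3, against 6.69, 6.63 and 6.90 in EpCAM+ replicates 1, 2 and 3. Its difference was -3.64 ± 0.21 (SE, adjusted p = 2.41e-05). The filter kept it only through its EpCAM+ level, so the call and the small spread in EpCAM- libraries lend no support of their own. Its annotated exons share 2631 bases with 4430402I18Rik on the other strand, which lay between 2.60 and 3.04 in all libraries, and no source used here says whether counting used strand. Slc1a3, the glutamate carrier of astrocytes, had levels of 4.05, 3.88 and 3.05 in EpCAM- libraries, against 5.00, 4.90 and 5.04 in EpCAM+ libraries. It fell by 1.32 ± 0.30 (SE, adjusted p = 0.0104), and EpCAM- replicate 3 was the lowest library. Slc1a2, the other main glutamate carrier of the brain, overlapped between the groups and did not pass (difference -0.21, adjusted p = 0.821).

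The alanine-serine-cysteine exchangers moved in opposite directions. Slc1a5, which brings glutamine into many tumour cells in exchange for other neutral amino acids, had log2 levels of 6.63, 6.27 and 5.83 in EpCAM- replicates 1, 2 and 3, against 8.17, 8.09 and 8.78 in EpCAM+ replicates 1, 2 and 3. It fell by 2.10 ± 0.28 (SE, adjusted p = 0.00105), a 4.29-fold lower level in EpCAM- cells, and every EpCAM- library was below every EpCAM+ library. Its relative Slc1a4, an exchanger of serine, alanine and threonine, rose by 0.40 ± 0.12 (SE, adjusted p = 0.0319). That small rise did not pass when EpCAM- replicate 3, EpCAM+ replicate 2 or EpCAM+ replicate 3 was left out, nor with no filter, nor without EpCAM+ replicate 1 and EpCAM- replicate 3 together, and its adjusted p ran from 0.0118 to 0.106 across the alternatives. Per kilobase of annotated exon (pairs compared in this way were chosen after their values were seen and not tested), Slc1a4 exceeded Slc1a5 by 3.25, 3.55 and 4.13 log2 units in EpCAM- libraries and by 1.49, 1.25 and 0.67 in EpCAM+ libraries.

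Among the sodium-coupled carriers of SLC38, Slc38a3 and Slc38a4 fell, while the more abundant Slc38a1 and Slc38a2 did not pass. Slc38a3, which exchanges protons while carrying glutamine, histidine and asparagine (system N; chromosome 9, 107650634 to 107669530), had log2 levels of 2.66, 3.26 and 3.18 in EpCAM- replicates 1, 2 and 3, against 8.42, 7.52 and 8.72 in EpCAM+ replicates 1, 2 and 3. The difference, -5.19 ± 0.35 (SE, adjusted p = 4.81e-05), was the largest of all members and amounts to a 36.4-fold lower level on the deposited scale. Within EpCAM+, replicate 2 was lowest for Slc38a3, and it was also lowest for the acinar markers, which averaged between 4.72 and 5.08 log2 units in EpCAM- libraries, against 10.75, 10.12 and 10.98 in EpCAM+ replicates 1, 2 and 3. Among EpCAM+ libraries, the islet, macrophage and fibroblast markers were also lowest in replicate 2. The part of RNA from acinar or other cells in the difference of Slc38a3 was not tested. Slc38a4, a carrier of small neutral amino acids that is imprinted in mice, had 4.66, 5.68 and 5.13 in EpCAM- libraries, against 7.36, 6.78 and 7.41 in EpCAM+ libraries. It fell by 2.03 ± 0.31 (SE, adjusted p = 0.00213), with no overlap between the groups.

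Slc38a2 had the highest level per kilobase of all 54 members in both groups. Its log2 levels were 13.73, 13.96 and 13.77 in EpCAM- libraries, against 13.66, 13.50 and 13.35 in EpCAM+ libraries. They did not overlap, but the difference of 0.32 ± 0.14 (SE) did not pass (adjusted p = 0.101). Slc38a1, which also carries glutamine, differed by 0.27 (adjusted p = 0.292). The lysosomal members split. Slc38a7, which exports glutamine and asparagine from lysosomes, rose by 0.66 ± 0.12 (SE, adjusted p = 0.00362) and missed the threshold only without EpCAM+ replicate 1 and EpCAM- replicate 3 together (adjusted p = 0.0529, between 0.00144 and 0.0529 over all alternatives). Slc38a9, the lysosomal arginine sensor of the growth kinase complex mTORC1, had 8.05, 8.20 and 8.07 in EpCAM- libraries, against 7.83, 7.78 and 8.08 in EpCAM+ libraries. The groups overlapped, and the difference of 0.21 ± 0.15 (SE) did not pass (adjusted p = 0.289), except after quantile normalisation (adjusted p = 0.0468, the lowest over all alternatives, with 0.573 the highest). The less studied Slc38a6 (0.60, adjusted p = 0.0567) and Slc38a10 (-0.07, adjusted p = 0.639) did not pass. Slc38a6 did so without EpCAM- replicate 1, after quantile normalisation and with array weights, at adjusted p-values from 0.0136 to 0.264 across its alternatives.

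**Figure D2:**
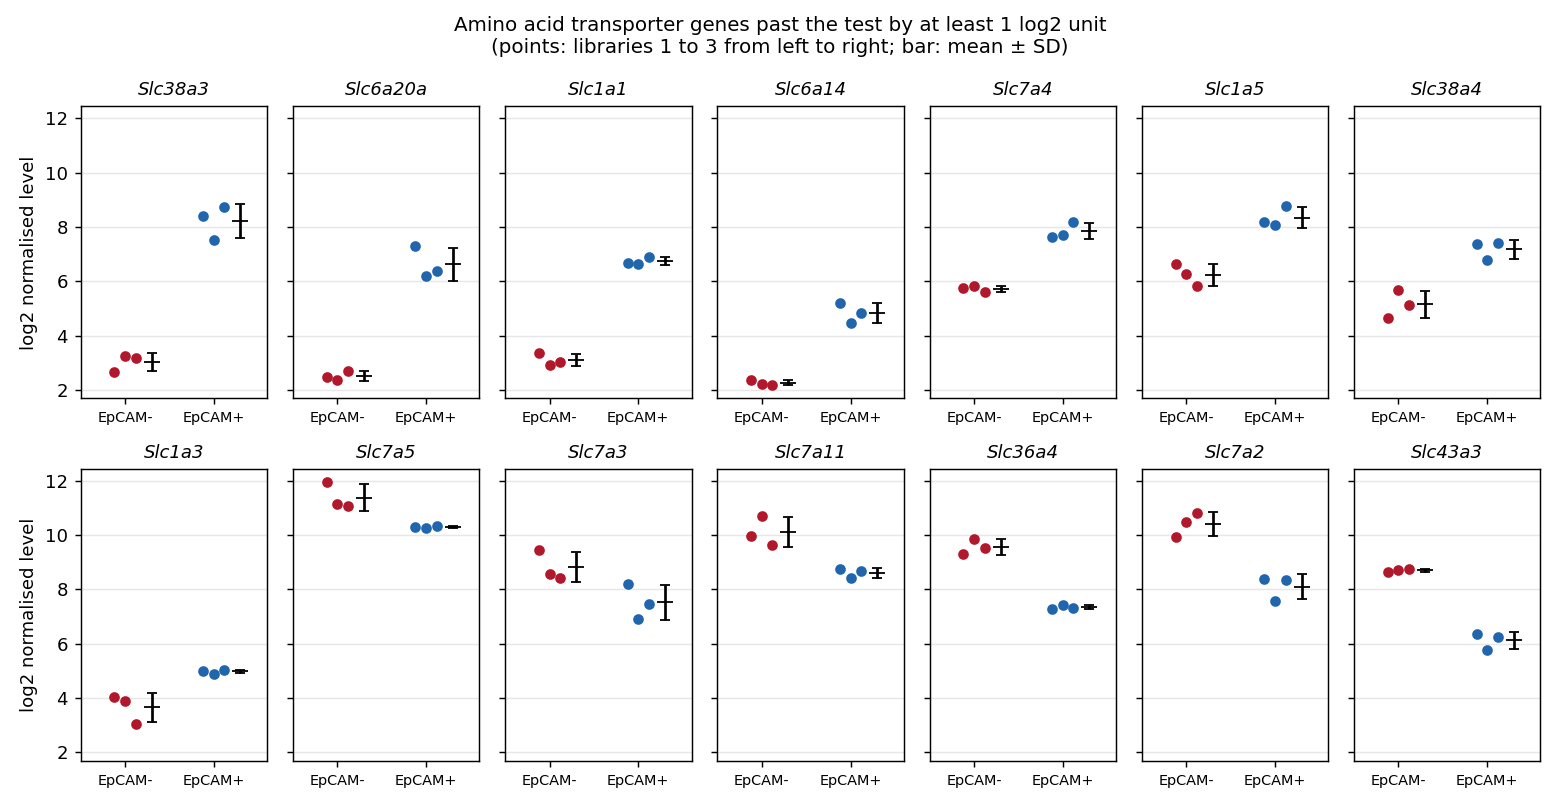
Log2 normalised level of the 14 members past the test by at least 1 log2 unit, with EpCAM- libraries in red, EpCAM+ libraries in blue, replicates 1 to 3 from left to right, and the mean ± SD of each group in black. In each panel the groups do not overlap, and Slc38a3, Slc6a20a, Slc1a1 and Slc6a14 lie below 4 in the EpCAM- libraries.

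The light chain genes for cystine import and for large neutral amino acid exchange rose, and the other 3 tested light chains did not pass. Slc7a11, the light chain that takes up cystine in exchange for glutamate (chromosome 3, 49892526 to 50443614), had log2 levels of 9.95, 10.72 and 9.64 in EpCAM- replicates 1, 2 and 3, against 8.76, 8.42 and 8.67 in EpCAM+ replicates 1, 2 and 3. It rose by 1.49 ± 0.27 (SE, adjusted p = 0.00433), a 2.81-fold higher level, with EpCAM- replicate 2 the highest library. Its promoter is the one above with a pair of response elements. Slc7a5, which exchanges leucine and other large neutral amino acids, had 11.96, 11.13 and 11.06 in EpCAM- libraries, against 10.31, 10.25 and 10.32 in EpCAM+ libraries. It rose by 1.09 ± 0.23 (SE, adjusted p = 0.0085). EpCAM- replicate 1 stood above the other two, while the EpCAM+ libraries lay within a narrow band.

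Slc3a2, the heavy chain that both of these light chains need, rose too. It had log2 levels of 12.04, 12.04 and 11.80 in EpCAM- libraries, against 11.49, 11.61 and 11.51 in EpCAM+ libraries, a difference of 0.43 ± 0.11 (SE, adjusted p = 0.0157). The call was lost without EpCAM+ replicate 1 (adjusted p = 0.0598), without EpCAM+ replicate 3 (adjusted p = 0.06) and without EpCAM+ replicate 1 and EpCAM- replicate 3 together (adjusted p = 0.0648), within a range from 0.0128 to 0.0648 over all alternatives. The other partners of Slc3a2 did not pass: Slc7a6 (0.18, adjusted p = 0.453) and Slc7a7 (-0.26, adjusted p = 0.151), which exchange cationic for neutral amino acids, and Slc7a8 (-1.11, adjusted p = 0.0619), a neutral amino acid exchanger of epithelia. Slc7a6 passed without EpCAM- replicate 2 (adjusted p = 0.0262, the lowest of its alternatives, with 0.835 the highest). Slc7a8 passed without EpCAM- replicate 1 (adjusted p = 0.0296), without EpCAM+ replicate 2 (adjusted p = 0.0308) and with array weights, and its adjusted p lay between 0.0111 (with the replicate number in the fit) and 0.254 over all alternatives. The order of Slc7a5 and Slc7a6 per kilobase was not the same in the groups. Slc7a5 exceeded Slc7a6 by 1.13, 0.95 and 0.29 log2 units in EpCAM- libraries, and lay under it, at -0.09, -0.23 and -0.06, in EpCAM+ libraries.

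The second heavy chain, Slc3a1, partner of the cystine carrier Slc7a9 in kidney and gut, was low in both groups and fell by 0.89 ± 0.27 (SE, adjusted p = 0.0328). The call was lost without EpCAM- replicate 1 or 3, without EpCAM+ replicate 2 or 3, without EpCAM+ replicate 1 and EpCAM- replicate 3 together and after quantile normalisation, with adjusted p-values between 0.0199 and 0.116 over all alternatives. Its exons share 601 bases with Prepl on the other strand, which was far more abundant (between 9.74 and 10.03 in EpCAM- libraries and between 10.24 and 10.37 in EpCAM+ libraries) and also fell, by 0.45. Without knowing the strand setting of the counts, the Slc3a1 value is uncertain. Slc7a9 was too low to test.

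Of the carriers of arginine and other cationic amino acids in SLC7 and their relatives, 2 rose, 1 fell and 2 did not pass. The fall was that of Slc7a4, for which cationic transport has not been established. Slc7a2, a carrier of arginine, lysine and ornithine that immune cells and fibroblasts also use (chromosome 8, 40862396 to 40922308), had log2 levels of 9.92, 10.49 and 10.80 in EpCAM- replicates 1, 2 and 3, against 8.39, 7.58 and 8.33 in EpCAM+ replicates 1, 2 and 3. It rose by 2.30 ± 0.30 (SE, adjusted p = 0.000878), a 4.94-fold higher level. It was highest in EpCAM- replicate 3, the EpCAM- library with the lowest sum of fibroblast markers. Of the 12 markers each, 10 fibroblast markers rose and 9 macrophage markers fell in EpCAM- cells, and the part of RNA from either cell type in the rise of Slc7a2 was not tested. Slc7a1, the widespread cationic carrier, had 12.04, 11.99 and 11.95 in EpCAM- libraries, against 11.73, 11.98 and 11.83 in EpCAM+ libraries. These overlapped, and the difference of 0.15 ± 0.10 (SE) did not pass (adjusted p = 0.277). Slc7a1 stayed the more abundant of the pair per kilobase, by 1.79, 1.17 and 0.82 log2 units over Slc7a2 in EpCAM- libraries and by 3.01, 4.07 and 3.16 in EpCAM+ libraries.

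Slc7a3, a cationic carrier known mainly from brain, had log2 levels of 9.46, 8.57 and 8.44 in EpCAM- libraries, against 8.20, 6.91 and 7.48 in EpCAM+ libraries. It rose by 1.29 ± 0.39 (SE, adjusted p = 0.0337), and replicate 1 was the highest library of each group. The call was lost without EpCAM- replicate 1 (adjusted p = 0.0782), EpCAM- replicate 2 (adjusted p = 0.0538), EpCAM+ replicate 2 (adjusted p = 0.0945) or EpCAM+ replicate 3 (adjusted p = 0.0967), within a range from 0.00399 to 0.0967 across the alternatives. Slc7a4, a relative for which cationic transport has not been established, had 5.77, 5.82 and 5.60 in EpCAM- libraries, against 7.64, 7.72 and 8.18 in EpCAM+ libraries. It fell by 2.12 ± 0.20 (SE, adjusted p = 0.000236). Slc7a14, a lysosomal relative, was low and did not pass (-0.97, adjusted p = 0.101), except without EpCAM+ replicate 2 (adjusted p = 0.0368, the lowest of its alternatives, with 0.276 the highest).

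**Figure D3:**
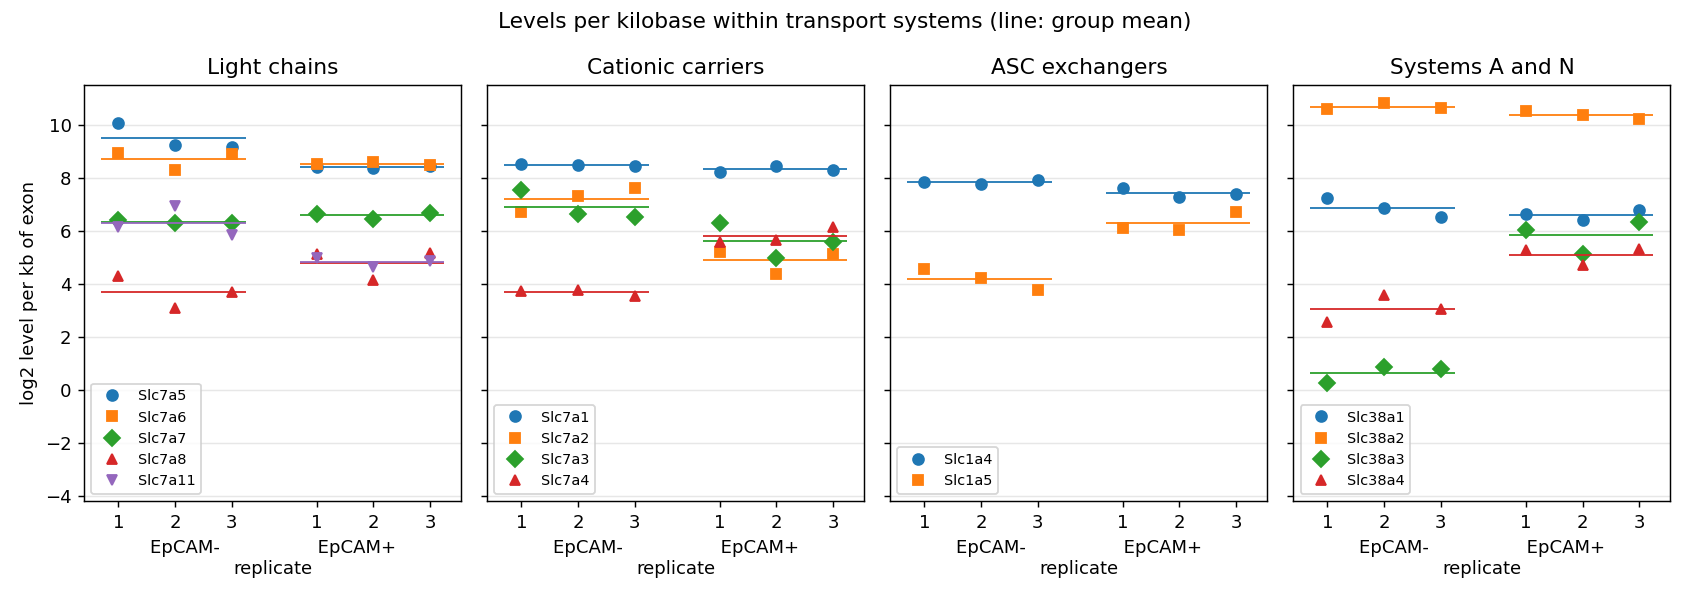
Log2 level per kilobase of annotated exon in each library for members of 4 transport systems, with EpCAM- libraries left of EpCAM+ libraries and a line at each group mean. Slc38a2 is the highest point in every library, the gap between Slc1a4 and Slc1a5 is wider in EpCAM- libraries, and Slc7a2 lies closer to Slc7a1 there.

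The SLC36 and SLC43 families held 3 of the 10 rises and no fall. Slc36a4, a high-affinity proline and tryptophan carrier (chromosome 9, 15709738 to 15743361), had log2 levels of 9.29, 9.87 and 9.52 in EpCAM- replicates 1, 2 and 3, against 7.28, 7.43 and 7.32 in EpCAM+ replicates 1, 2 and 3. It rose by 2.21 ± 0.17 (SE, adjusted p = 8.52e-05), a 4.64-fold higher level, with a spread far below the difference. Slc36a1, which moves small amino acids with protons out of lysosomes, rose by 0.42 ± 0.13 (SE, adjusted p = 0.0328). Its call was lost without any single library except EpCAM- replicate 1, and with no filter, and its adjusted p lay between 0.00794 and 0.258 over all alternatives. Slc43a3, which is described as a carrier of purine nucleobases in place of amino acids (chromosome 2, 84936579 to 84958509), had 8.63, 8.73 and 8.74 in EpCAM- libraries, against 6.35, 5.76 and 6.26 in EpCAM+ libraries. It rose most of all members, by 2.58 ± 0.20 (SE, adjusted p = 7.86e-05), and the EpCAM- libraries were nearly equal. Fibroblast markers also rose in EpCAM- cells, and their part in the rise of Slc43a3 was not tested. Its relative Slc43a2, which lets neutral amino acids leave cells, overlapped between the groups and did not pass (-0.22, adjusted p = 0.537).

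The SLC6 family, which includes the carriers of neurotransmitters, taurine, creatine and several amino acids, had no member that rose. Slc6a20a, a sodium-coupled carrier of proline (chromosome 9, 123634770 to 123678885), had log2 levels of 2.48, 2.36 and 2.70 in EpCAM- replicates 1, 2 and 3, against 7.32, 6.21 and 6.37 in EpCAM+ replicates 1, 2 and 3. It fell by 4.12 ± 0.33 (SE, adjusted p = 9.13e-05), a 17.4-fold lower level. The islet markers averaged between 2.91 and 3.53 log2 units in EpCAM- libraries, against 8.83, 6.83 and 6.87 in EpCAM+ replicates 1, 2 and 3, so the same EpCAM+ library was highest. Among EpCAM+ libraries, replicate 1 was also highest for the macrophage and fibroblast markers. The part of RNA from any of these cell types in the difference was not tested. Slc6a14, a concentrating carrier of neutral and cationic amino acids in mucosal epithelia, had 2.37, 2.23 and 2.20 in EpCAM- libraries, against 5.22, 4.47 and 4.84 in EpCAM+ libraries. It fell by 2.57 ± 0.24 (SE, adjusted p = 0.000219). Both genes lay near the low end of the table in EpCAM- cells, and since the authors' transform is not known, the true size of these falls is uncertain.

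The abundant members of SLC6 did not pass. Taurine carrier Slc6a6 had the third highest level per kilobase in EpCAM- cells and the second highest in EpCAM+ cells, and its difference was -0.20 (adjusted p = 0.363). Creatine carrier Slc6a8 differed by 0.40 (adjusted p = 0.143), but passed without EpCAM- replicate 1 (adjusted p = 0.0301, the lowest of its alternatives, with 0.481 the highest). Glycine carrier Slc6a9 differed by -0.38 (adjusted p = 0.122) and passed only with array weights (adjusted p = 0.0387, with 0.632 the highest over all alternatives). Among the low members, the noradrenaline carrier Slc6a2 (1.46, adjusted p = 0.149) had the highest positive difference without a call, and its adjusted p lay between 0.0243 (with the replicate number in the fit) and 0.313 over all alternatives. The proline and neutral amino acid carriers Slc6a15 (0.03) and Slc6a17 (0.98, adjusted p = 0.0678) also did not pass, although Slc6a17 did so without EpCAM- replicate 1 (adjusted p = 0.0323) or EpCAM+ replicate 1 (adjusted p = 0.049), after quantile normalisation and with array weights, with adjusted p-values between 0.0206 and 0.189 over all alternatives.

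The 16 members below the filter had log2 values between -1.51 and 3.87 and were not tested. They include the brain glutamate carriers Slc1a6 and Slc1a7, the serotonin and dopamine carriers Slc6a4 and Slc6a3, the intestinal neutral carrier Slc6a19, the proline carriers Slc6a7 and Slc36a2, Slc38a5 and Slc38a8, and Slc7a9, Slc7a13 and Slc7a15. The rest are Slc6a20b, Slc6a21, Slc43a1 and Slc6a12. The betaine and GABA carrier Slc6a12, the highest of them, had values of 2.26, 2.14 and 2.13 in EpCAM- libraries, against 3.79, 3.80 and 3.87 in EpCAM+ libraries, which do not overlap.

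Genes that work with the transporters changed in both directions. The shares called in the lists that follow stand against 43.4% of all tested genes called, 20.3% that rose and 23.1% that fell. Of 9 tested partners and trafficking proteins, 3 rose, 3 fell and 3 did not pass (66.7% called), with a median log2 difference of 0.04 against 0.00 over all tested genes. Cltrn, the collectrin that brings carriers such as Slc6a19 to the membrane, had log2 levels of 2.66, 2.37 and 2.71 in EpCAM- libraries, against 7.24, 6.00 and 6.22 in EpCAM+ libraries, and fell by 3.91 ± 0.35 (SE, adjusted p = 0.00016). The filter kept Cltrn only through its EpCAM+ level, so its fall and its part in the share called lend no support of their own. Scaffold genes moved apart, with Slc9a3r1 at -1.11 and Slc9a3r2 higher in EpCAM- cells, and the chaperone Bsg of monocarboxylate carriers fell by 0.78. Of 7 tested transporters outside the families, 0 rose, 3 fell and 4 did not pass (42.9% called, median -0.41). The falls include that of Slc29a3, which is not an amino acid carrier. The aromatic amino acid carrier Slc16a10 fell by 1.57 ± 0.22 (SE, adjusted p = 0.0013), followed by the lysosomal cysteine carrier Mfsd12 (-1.07) and the lysosomal nucleoside carrier Slc29a3 (-0.71). Without EpCAM+ replicate 1 and EpCAM- replicate 3 together, 1 partner rose and 2 fell, and 0 of the other transporters rose and 2 fell.

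Of 27 tested genes through which mTORC1 senses amino acids, 11 rose, 0 fell and 16 did not pass, with a median log2 difference of 0.36. The share called, 40.7%, was near the background of 43.4%, and the 11 calls were all rises. The activity of mTORC1 was not measured, and these levels do not give its direction. Without the same 2 libraries 7 rose and 0 fell. The arginine sensor genes Castor1 (1.84 ± 0.19, SE) and Castor2 (1.29) and the sestrin Sesn3 (1.14) rose most, with Fnip2 (1.12), a partner of the lysosomal regulator folliculin. Of 24 tested genes of the amino acid starvation response, 9 rose, 3 fell and 12 did not pass (12 of 24 called, 37.5% rose and 12.5% fell, median 0.38), and without those libraries 6 rose and 2 fell. The serine synthesis gene Phgdh had 12.89, 11.81 and 12.43 in EpCAM- libraries, against 10.91, 10.89 and 10.56 in EpCAM+ libraries, a rise of 1.59 ± 0.26 (SE, adjusted p = 0.003). Vldlr (1.47), a lipoprotein receptor gene, rose with it. Stc2, a secreted glycoprotein gene, fell by 2.81 ± 0.32 (SE, adjusted p = 0.000525) and the stress gene Nupr1 by 1.36. Atf4 itself (-0.21, adjusted p = 0.385), Asns (0.37, adjusted p = 0.427) and Trib3 (-0.07, adjusted p = 0.818) did not pass.

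**Figure D4:**
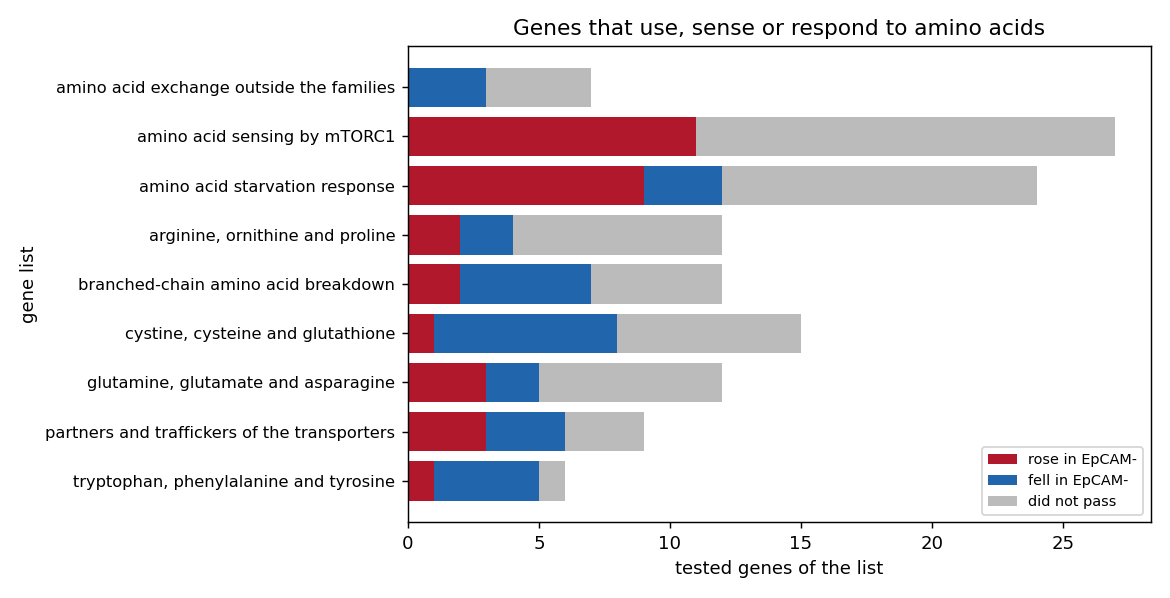
Number of tested genes in 9 lists around the transporters that rose (red), fell (blue) or did not pass (grey) in EpCAM- against EpCAM+ cells. No gene fell among the 27 of mTORC1 sensing, and 7 fell among the 15 of cystine and glutathione use.

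Enzymes that use the imported amino acids changed in both directions. Of 15 tested genes of cystine, cysteine and glutathione use, 1 rose, 7 fell and 7 did not pass (6.67% rose and 46.7% fell, median -0.22, and 0 rose and 5 fell without EpCAM+ replicate 1 and EpCAM- replicate 3). Ggt1, which splits extracellular glutathione, had 4.74, 4.07 and 3.80 in EpCAM- libraries, against 10.44, 9.83 and 10.07 in EpCAM+ libraries, and fell by 5.91 ± 0.29 (SE, adjusted p = 1.24e-05). Cbs, which makes the cysteine precursor cystathionine, had 4.13, 4.55 and 3.77, against 9.97, 9.40 and 9.99 in the same order, and fell by 5.63 ± 0.27 (SE, adjusted p = 1.15e-05). Acinar, islet, macrophage and epithelial markers were lower in the same EpCAM- libraries, and the part of RNA from any of these cell types in these falls was not tested. The cysteine oxidising enzyme Cdo1 (-1.49) also fell, and the glutathione-degrading enzyme Chac1 (1.14) rose.

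Of 12 tested genes of glutamine, glutamate and asparagine use, 3 rose, 2 fell and 7 did not pass (41.7% called, median 0.35, and 1 rose and 1 fell without those 2 libraries). The pyrimidine synthesis enzyme Cad (1.36 ± 0.19, SE) rose, while the glutaminase Gls2 (-3.14 ± 0.28, SE) and the transaminase Gpt (-0.82) fell. Of 12 tested genes of branched-chain amino acid breakdown, 2 rose, 5 fell and 5 did not pass (58.3% called, median -0.33, and 1 rose and 1 fell without them). Bcat1, the cytosolic transaminase, had 9.63, 8.04 and 7.47 in EpCAM- libraries, against 5.10, 3.26 and 3.82 in EpCAM+ libraries, and rose by 4.32 ± 0.66 (SE, adjusted p = 0.00196). The mitochondrial transaminase Bcat2 fell by 1.34, with Ppm1k (-0.96) and Dbt (-0.86) of the dehydrogenase step. Replicate 1 was the highest library of each group for Bcat1.

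Of 12 tested genes of arginine, ornithine and proline use, 2 rose, 2 fell and 8 did not pass (33.3% called, median -0.18, and 1 rose and 1 fell without those 2 libraries). The arginase Arg2 (-1.89) and the proline oxidase Prodh (-1.05) fell, and the polyamine enzyme Odc1 (0.81) and the proline synthesis enzyme Aldh18a1 (0.68) rose. Of 6 tested genes of aromatic amino acid use, 1 rose, 4 fell and 1 did not pass (83.3% called, median -1.88, and 1 rose and 3 fell without them). Tph1, which starts serotonin synthesis from tryptophan, had 3.77, 3.49 and 3.92 in EpCAM- libraries, against 10.52, 9.76 and 9.85 in EpCAM+ libraries, and fell by 6.32 ± 0.25 (SE, adjusted p = 7.08e-06). Ddc (-2.90), which acts on aromatic precursors of monoamines, also fell, and Ido2 (1.02) rose at a low level. The filter kept Ddc only through its EpCAM+ level and Ido2 only through its EpCAM- level, so these calls lend no support of their own. Islet, acinar, macrophage and epithelial markers were lower in the same EpCAM- libraries. The part of RNA from any of these cell types in the fall of Tph1 and Ddc was not tested.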

How the data were processed

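The authors deposited log2 levels per gene for 6 libraries, normalised between libraries. Their transform and annotation are not given in the sources used here. The submitters' processing notes name GRCm38, STAR 2.5.2, DESeq2 1.24.0 and RSEM, with no role or order. Libraries came from a KAPA mRNA HyperPrep kit, per the labels' protocols. Values ran from -1.52 to 20.05, and depth is unknown.

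Symbols and exon lengths came from GENCODE M21 (GRCm38), which matched 25846 of 25978 identifiers. Genes whose back-transformed values averaged at least 10 were tested in R 4.3.3 by limma 3.58.1 (variance trend, no covariate, two-sided), with Benjamini-Hochberg adjustment over all 15783 tested genes. The design had named a log2 scale, so deposited values were tested without a pseudocount. Differences are EpCAM- minus EpCAM+. Levels are compared between genes only per kilobase of merged annotated exon, and the authors' gene lengths are not known. With 3 libraries against 3, an exact permutation test cannot go below 0.1, so none was used. The labels call the 3 libraries of a group biological replicates, but no label ties libraries to animals, so the p-values rest only on how far these samples spread, which may be technical.

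Members, gene lists and tests were chosen with earlier results of these data known. Values per library are given for members past the test by at least 1 log2 unit and for Slc7a11, Slc7a5, Slc3a2, Slc1a5, Slc38a2, Slc38a9 and Slc7a1; other called members are given by their difference; in each list around the transporters, up to 4 genes past the test are named by size, and a few more were chosen after their values were seen (Atf4, Asns, Trib3). Some genes of these lists are not reported here. Alternatives were pseudocounts of 1 and 5, no filter, a filter at 50, quantile normalisation, TMM scaling, a replicate block, array weights, and leaving out libraries.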

Additional observations from a re-analysis of the deposited data

How the results depend on the processing

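Over 15 alternatives, 13 of the 19 called members passed every time they were tested, 5 that rose and 8 that fell, and none changed direction. The falls among them include Slc38a3, Slc6a20a, Slc1a1 and Slc6a14, which the main filter kept only through their EpCAM+ level, so their passing lends no support of its own. The other 6 called members (Slc1a4, Slc36a1, Slc38a7, Slc3a1, Slc3a2 and Slc7a3) lost the call under at least 1 alternative, and 9 members that had not passed did so under at least 1. The cause of these changes was not tested. Without EpCAM+ replicate 1 and EpCAM- replicate 3 together, 4369 genes changed in place of 6850, 6 members rose in place of 10, and 35 genes of the lists around the transporters passed in place of 59. These fits use fewer samples. When single libraries were left out, between 4987 (without EpCAM+ replicate 3) and 7300 genes (without EpCAM- replicate 1) changed, between 6 and 12 members rose and between 8 and 10 fell. A filter at a mean of 50 left 6 members that fell and no filter gave 13. Quantile normalisation moved the median gene by 0.13 log2 units, and 13 members then rose and 8 fell. Same-numbered libraries deviated from their group means with correlations of 0.41, 0.044 and 0.165 for numbers 1, 2 and 3. Between unlike numbers they ran from -0.337 to 0.23, and EpCAM- replicate 2 correlated more with EpCAM+ replicate 3 (0.134) than with its own number. With 3 libraries per group, these values cannot decide whether the numbers are pairs, and the main fit did not use them as pairs. With the replicate block, 7090 genes changed, 11 members rose and 10 fell, Slc6a2 (adjusted p = 0.0243) and Slc7a8 (adjusted p = 0.0111) being added. Since depth is unknown, no detection limit can be given for the low members.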

Other observations

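A few members that did not pass had wide differences between libraries of a group, and these were chosen after their values were seen. Slc1a2 stood at 5.02, 7.36 and 7.41 in EpCAM- replicates 1, 2 and 3, against 6.25, 7.03 and 7.13 in EpCAM+ replicates 1, 2 and 3. Replicate 1 had the lowest value of each group. Slc6a2 stood at 6.34, 3.58 and 3.96 in EpCAM- libraries, against 3.88, 2.78 and 2.83 in EpCAM+ libraries, and was highest in replicate 1 of each group. Over the alternatives, the difference of Slc1a2 ran from -0.89 to 0.58 and that of Slc6a2 from 0.60 to 2.15. Slc6a17 was highest in EpCAM- replicate 2, at 5.16, against 3.97 and 4.45 in the other EpCAM- libraries and 4.04, 3.29 and 3.30 in EpCAM+ libraries.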
